A study of Homo sapiens with 12 samples.

Results

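FOSL1, MYC and PPARD are 3 transcription factor genes of the canonical Wnt pathway, and they were 3 of the 199 genes of the nCounter Dx Stem Cell Panel. They were taken by name, because pathway maps place them among the genes that beta-catenin and its TCF/LEF partners switch on. The panel was measured in LX-2, an established line of human hepatic stellate cells (HSCs), to ask how a raised level of miR-25 changes stem cell signalling genes. Cells received 10 pmol/ml of a miR-25 mimic, or of a control mimic with a nematode miRNA sequence, and RNA was taken 24 h or 48 h later. Each of the 4 groups (control and miR-25 at 24 h, control and miR-25 at 48 h) held 3 samples. The control and the miR-25 sample of 1 replicate and time share a transfection efficiency in the labels. They were treated as a pair, so that the 12 samples made 6 pairs. All samples came from 1 cell line, so p-values measure the spread between these transfections. Both arms were lipid-transfected, and no untransfected cells were used here. The transfection efficiency in the labels was 0.42 to 0.81. By the paper it is the share of fluorescent cells in a parallel well given a labelled control miRNA, not in the measured samples. By the labels miR-25 stood at 62.34 to 350.13 times the control at 24 h and 347.45 to 681.22 times at 48 h. In such bulk RNA a change in every cell and a larger change in some of the cells cannot be told apart.

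In canonical Wnt signalling, Wnt ligands bind Frizzled receptors, the complex that destroys beta-catenin is held back, and beta-catenin enters the nucleus to activate target genes with TCF/LEF factors. FOSL1 encodes FRA-1, a subunit of the dimeric transcription factor AP-1 that pairs with JUN proteins. MYC encodes a transcription factor that drives growth and the cell cycle, and PPARD encodes a nuclear receptor for fatty acids. HSCs are the cells that turn into matrix-producing myofibroblasts in the injured liver, and proliferation is part of that change. All 3 genes also answer to other signals, such as growth factors, so their mRNA is not a readout of Wnt alone.

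The agent and 1 probe target are shown because the results rest on them. The mature miR-25 (RefSeq, GRCh38.p14, chr7:100093571-100093592, minus strand) is printed with its seed, bases 2 to 8, in capitals, and the FOSL1 line is the stretch of FOSL1 mRNA (NM_005438.2), 100 bases with a GC content of 57.0%, that the pair of probes binds.
hsa-miR-25-3p: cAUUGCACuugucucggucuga
FOSL1 probe target: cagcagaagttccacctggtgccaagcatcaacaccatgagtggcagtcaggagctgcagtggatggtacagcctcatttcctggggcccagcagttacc
The letters TGCAAT, the 6 bases complementary to seed bases 2 to 7, were searched on the sense strand of the 193 probe targets with a given sequence. They stood in 3 of them (1.55%) and in none of the targets of FOSL1, MYC (NM_002467.3) or PPARD (NM_006238.3). A probe target is a short part of a transcript, so this says nothing of sites elsewhere in these mRNAs.

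An nCounter count is the number of barcoded probe pairs seen on the transcript of a gene. The total over the panel genes ranged from 321243 to 409581 counts at 24 h and from 107377 to 200821 at 48 h, so later samples carried more counting error, and depth cannot be told apart from time. The positive control probes were also lower at 48 h (sums of 51306 to 59004) than at 24 h (76248 to 87475). Within each time point replicate 1 stood apart, in both arms: over all genes its differences from replicates 2 and 3 reached 13.2 to 73.1 times the counting variance per degree of freedom, against 2.52 to 3.996 between replicates 2 and 3. The transfection efficiency in the labels was also lowest in replicate 1, 0.59 at 24 h and 0.42 at 48 h. COL1A1, CDH2 and CD44, markers of stellate and mesenchymal cells, exceeded the background level in 12 of 12 samples, whereas 0 of 4 T cell, 0 of 3 epithelial, 0 of 3 neural, 0 of 2 muscle and 0 of 3 endoderm markers did so. Low counts above background were nevertheless frequent for some of these: CD4 exceeded it in 11 samples (mean of 28.8 counts), ISL1 in 11 (15.3), GJB1 in 10 (11.8) and SOX1 in 8 (11.8). Of 4 pluripotency markers POU5F1 exceeded it in 12 samples (mean of 25.1 counts) and NANOG in 8 (11.3). Whether these low markers bear on the results was not tested.

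FOSL1, MYC and PPARD were detected in 12 of 12 samples. The background level was the mean of the 8 negative control probes plus 2 SD in the same sample, 5.52 to 16.5 counts, and FOSL1 exceeded it 187- to 482-fold, MYC 44.3- to 133-fold and PPARD 16.6- to 52.2-fold. PPARG, which encodes a nuclear receptor related to that of PPARD and is the factor associated with quiescent HSCs, exceeded it in 2 of 12 samples with a mean of 5.75 counts, and was not tested, while FOSL1, MYC and PPARD, with means of 3199, 892 and 378 counts, passed the minimum of 20. Counts of different genes depend on their probes, so the higher counts of FOSL1 do not rank the 3 mRNAs by abundance.

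FOSL1 read higher in every miR-25 sample than in its own control, while the groups overlapped at both time points. Levels are given per 100,000 panel counts. At 24 h the control samples held 1073, 1201 and 1233 (replicates 1 to 3, from 4338, 4115 and 3960 counts) and the miR-25 samples 1232, 1370 and 1267 (5045, 5332 and 4656 counts). At 48 h the control samples held 1281, 1012 and 1050 (1376, 1424 and 1924 counts) and the miR-25 samples 1472, 1027 and 1146 (2287, 1633 and 2301 counts). Replicate 1 was the lowest of each group at 24 h and the highest of each group at 48 h. The order of the group means was miR-25 at 24 h (1289 ± 71.7, SD, n = 3), miR-25 at 48 h (1215 ± 231), control at 24 h (1169 ± 84.7) and control at 48 h (1114 ± 146), and every neighbour in that order overlapped.

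MYC had the tightest levels of the 3 genes at 24 h and lay lower at 48 h than at 24 h in both arms. The control samples at 24 h held 339, 340 and 346 per 100,000 panel counts (1372, 1165 and 1111 counts) and the miR-25 samples 365, 379 and 368 (1494, 1474 and 1353 counts). At 48 h the control samples held 304, 308 and 280 (326, 433 and 513 counts) and the miR-25 samples 277, 323 and 260 (431, 514 and 523 counts). All miR-25 samples at 24 h lay above all controls at 24 h, and those lay above all samples at 48 h. The group means were 371 ± 7.24, 342 ± 3.61, 297 ± 14.98 and 287 ± 32.5 (SD, n = 3) for miR-25 at 24 h, control at 24 h, control at 48 h and miR-25 at 48 h, and only the last pair in that order overlapped. The coefficient of variation of MYC in the 24 h controls, 1.06%, was below the counting error of a single sample, 2.70% to 3.00%, and 1 of the 136 genes tested had a smaller one. The lack of overlap between the 24 h groups was thus seen against a spread smaller than counting error. The test of that gap, given below, came from a fit of all 12 samples and had an SE of 0.047 (log2).

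PPARD had the fewest counts of the 3 genes and overlapped between the times in both arms. The control samples at 24 h held 143, 129 and 139 per 100,000 panel counts (578, 441 and 448 counts) and the miR-25 samples 157, 144 and 150 (643, 560 and 553 counts). At 48 h the control samples held 114, 137 and 147 (122, 193 and 270 counts) and the miR-25 samples 127, 147 and 145 (197, 234 and 292 counts). The lowest miR-25 sample at 24 h, 143.9, lay just above the highest control at 24 h, 142.9, and replicate 1 was the lowest of both groups at 48 h. The means were 150 ± 6.56 for miR-25 at 24 h, 140 ± 11.3 for miR-25 at 48 h, 137 ± 7.42 for control at 24 h and 133 ± 17.3 for control at 48 h (SD, n = 3), in that order, and all neighbours overlapped. Counting error was 3.94% to 4.76% of a PPARD count at 24 h and 5.85% to 9.05% at 48 h.

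**Figure D1:**
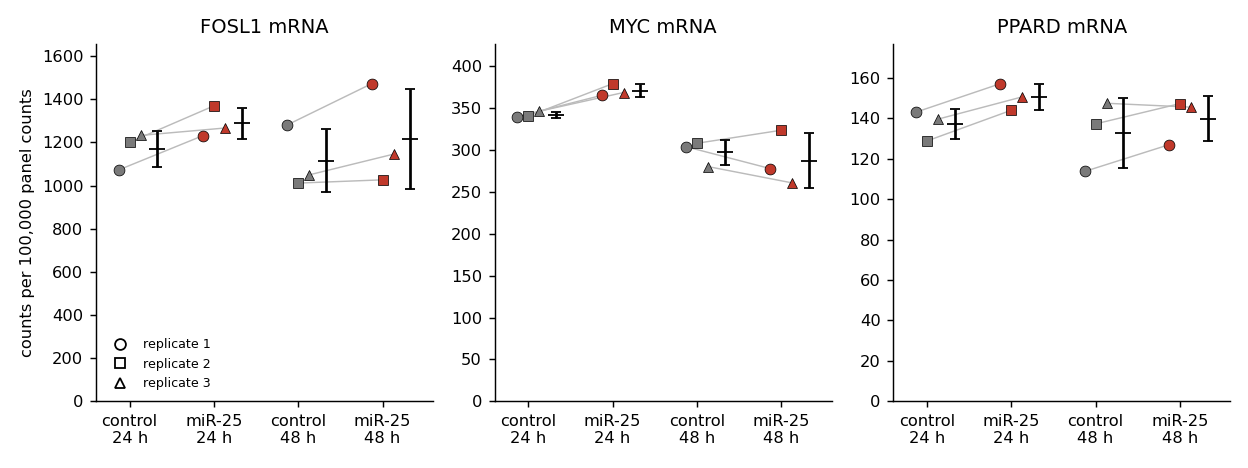
Counts per 100,000 panel counts of FOSL1, MYC and PPARD (vertical axes from 0) in the 12 samples, by group. Grey points are control and red points miR-25 samples, the shape gives the replicate, thin lines join the samples of 1 pair, and the bar beside each group is its mean ± SD (n = 3). For MYC the 24 h groups lie at 342 and 371, above both 48 h groups, whereas the FOSL1 groups overlap and replicate 1 (circles) moves from the lowest at 24 h to the highest at 48 h.

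The comparison of miR-25 with control asks whether more miR-25 changes these mRNAs. At 24 h FOSL1, MYC and PPARD were each higher with miR-25 in 3 of 3 pairs, as were 25.7% of the 136 genes tested. The FOSL1 ratios of miR-25 to control were 1.15, 1.14 and 1.03 in pairs 1 to 3, and counting error alone gave 95% intervals (exact Clopper-Pearson on the share of the pair's counts) of 1.10 to 1.20, 1.10 to 1.19 and 0.985 to 1.07. The MYC ratios were 1.08, 1.11 and 1.06, and the interval left out a ratio of 1 in pair 2 (1.03 to 1.20). The PPARD ratios were 1.10, 1.12 and 1.08, and all 3 intervals held 1. The means were 1.11 ± 0.067 for FOSL1, 1.08 ± 0.026 for MYC and 1.10 ± 0.019 for PPARD (SD, n = 3).

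At 48 h FOSL1 was higher with miR-25 in 3 of 3 pairs, with ratios of 1.15 (1.07 to 1.23), 1.01 (0.945 to 1.09) and 1.09 (1.03 to 1.16), PPARD in 2 of 3 pairs (1.12, 1.07 and 0.987) and MYC in 1 of 3 (0.914, 1.05 and 0.930). All intervals of MYC and PPARD at 48 h held 1. An interval without 1 was not particular to FOSL1. In pair 1 at 48 h the reference genes HPRT1, 1.15 (1.08 to 1.22), and TUBB, 1.07 (1.03 to 1.10), had one as well. The interval of GAPDH in that pair also left out 1, while those of CLTC and GUSB held it. In pairs 2 and 3 at 48 h the HPRT1 interval held 1. Over both times FOSL1 was higher in 6 of 6 pairs, as were 7 genes in all (5.15% of those tested): DLL3, DTX3, GLI2, JAG2, PRKCD and WNT5B were the others, named because the count is small and not for their roles. The genes higher in 3 of 3 pairs at 48 h made up 16.9%.

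**Figure D2:**
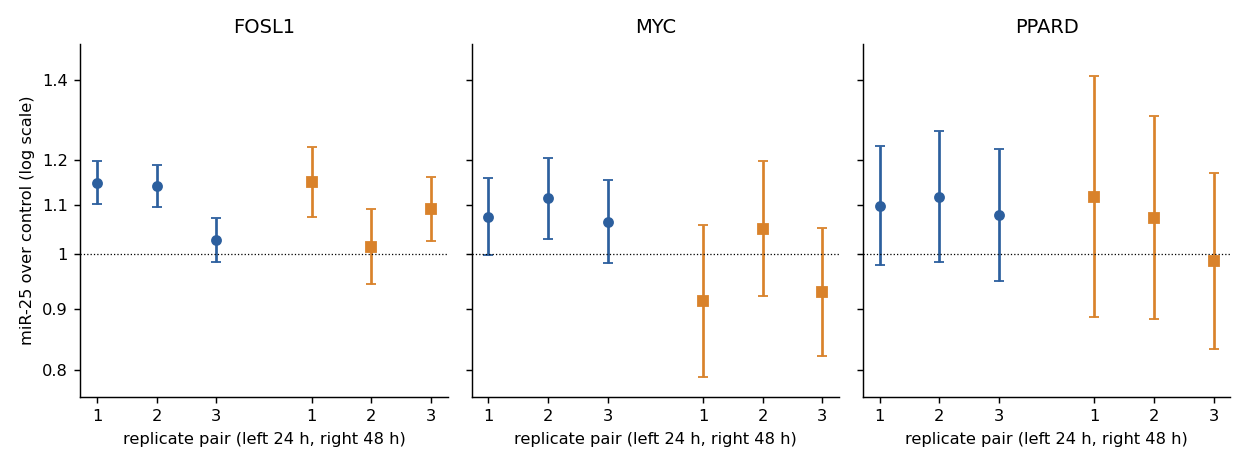
Ratio of miR-25 to control in each of the 6 transfection pairs for FOSL1, MYC and PPARD, on a log axis, from counts divided by the panel total. Blue circles are pairs at 24 h and orange squares pairs at 48 h, bars are 95% counting intervals and the dotted line marks no difference. All FOSL1 points lie above 1, the MYC points lie above 1 at 24 h and on both sides of it at 48 h, and the widest bars are those of PPARD at 48 h.

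In the fit over all genes (edgeR's quasi-likelihood test with the pair as a block, Benjamini-Hochberg adjustment over 136 genes) FOSL1, MYC and PPARD stayed above an adjusted p of 0.05 in every comparison of miR-25 with control. At 24 h the log2 fold change of FOSL1 was 0.14 ± 0.043 (SE; 95% interval 0.05 to 0.24; edgeR adjusted p = 0.543), that of PPARD 0.14 ± 0.055 (0.02 to 0.25; adjusted p = 0.557) and that of MYC 0.12 ± 0.047 (0.02 to 0.22; adjusted p = 0.557). Before adjustment these 3 genes were among the 9 of 136 (6.62%) with p under 0.05, at ranks 1, 6 and 5 by p, and 0 genes (0.0%) passed after adjustment. The median log2 fold change of all tested genes at 24 h was 0.03, and 70.6% lay above 0. The groups of MYC and PPARD did not overlap at 24 h, which held for 5 of 136 genes (3.68%), the others being CSNK1D, FURIN and MAML2, named because the count is small. The unadjusted p-values at 24 h depended on the setting. TMM scaling gave FOSL1 0.11, MYC 0.08 and PPARD 0.10 (edgeR unadjusted p = 0.026, 0.10 and 0.073). DESeq2 gave 0.10, 0.08 and 0.10 (DESeq2 unadjusted p = 0.060, 0.32 and 0.38). With the reference genes or the total without GAPDH as library size, all 3 stayed under 0.05.

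At 48 h the log2 fold change was 0.12 ± 0.048 for FOSL1 (95% interval 0.02 to 0.22; edgeR adjusted p = 0.310), 0.07 ± 0.076 for PPARD (-0.10 to 0.23; adjusted p = 0.734) and -0.05 ± 0.061 for MYC (-0.18 to 0.08; adjusted p = 0.734). Only FGF1, named after its values were seen, passed the test at 48 h (0.735% of the genes tested), with a log2 fold change of 0.38 (edgeR adjusted p = 0.0204). It did not pass with the reference genes as library size, without the block, without replicate 3 of 24 h or with limma, which called JAG2 in its place at pseudocounts of 1 and 5. At 48 h 12.5% of the genes had an unadjusted p under 0.05, FOSL1 among them. FOSL1 read 0.09 with the reference genes as library size (edgeR unadjusted p = 0.109) and 0.10 with TMM (0.056). With the total without GAPDH it read 0.13 (edgeR unadjusted p = 0.0137). The groups of 3.68% of the genes did not overlap at 48 h, and none of FOSL1, MYC and PPARD was among them. The interval of FOSL1 reached at most 0.24 on the log2 scale at either time.

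Over both time points FOSL1 had the smallest p of all 136 genes, with a log2 fold change of 0.13 ± 0.032 (95% interval 0.06 to 0.20; edgeR adjusted p = 0.0947). PPARD followed with 0.11 ± 0.046 (adjusted p = 0.286) and MYC with 0.05 ± 0.043 (adjusted p = 0.630). No gene passed (0.0%), while 15.4% of genes had an unadjusted p under 0.05, FOSL1 and PPARD among them. The call for FOSL1 changed with the samples kept: without replicate 1 of 48 h it passed at 24 h (0.14, adjusted p = 0.00035) and over both times (0.12, adjusted p = 0.0004), and with the 24 h samples alone it passed at 24 h (adjusted p = 0.00165). Both passing fits at 24 h held the same 24 h pairs and the same estimate, 0.14. Their SE was 0.030 and 0.032 in place of 0.043. FOSL1 did not pass without any other single pair.

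The log2 fold change of MYC with miR-25 was 0.12 at 24 h and -0.05 at 48 h. The difference, 48 h minus 24 h, was -0.17 ± 0.077 (95% interval -0.33 to -0.0025; edgeR adjusted p = 0.631), one of 5.88% of genes with an unadjusted p under 0.05, and 0.0% passed after adjustment. For PPARD it was -0.07 ± 0.094 (adjusted p = 0.899) and for FOSL1 -0.03 ± 0.064 (adjusted p = 0.974). A different response at the 2 times was thus not detectable for any of the 3 genes.

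**Figure D3:**
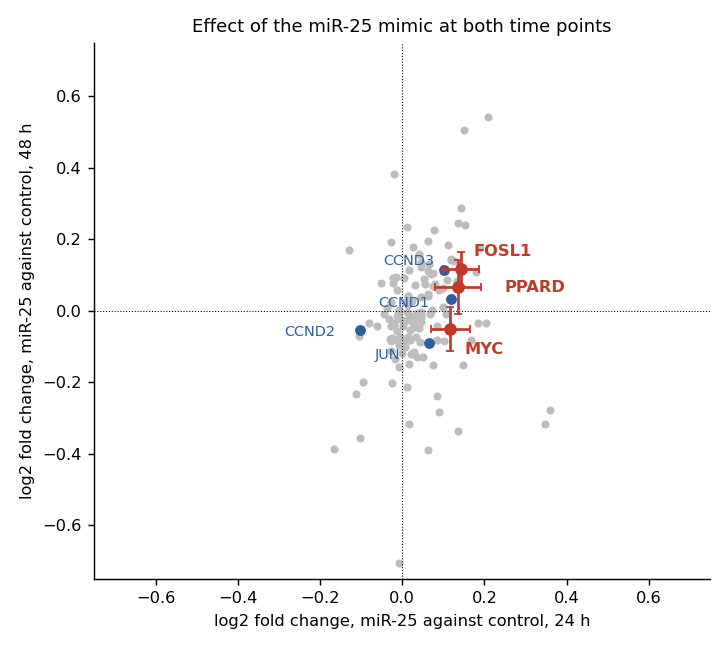
Log2 fold change of miR-25 against control at 24 h (horizontal) and at 48 h (vertical) for the 136 genes tested (grey points). FOSL1, MYC and PPARD are red with ± 1 SE, and JUN, CCND1, CCND2 and CCND3 are blue. The 3 red points lie at 0.12 to 0.14 at 24 h, and at 48 h at 0.12 (FOSL1), 0.07 (PPARD) and -0.05 (MYC), inside the cloud of the other genes.

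The scaling of the ratios bore on their size. The 5 reference genes, TUBB, HPRT1, GUSB, GAPDH and CLTC, had a median log2 fold change with miR-25 of 0.01 at 24 h and 0.02 at 48 h. The panel total was higher in the miR-25 than in the control sample in 6 of 6 pairs, so unscaled FOSL1 counts were 1.15 to 1.66 times the control, PPARD counts 1.08 to 1.61 times and MYC counts 1.019 to 1.32 times. The study divided ratios of raised genes by the transfection efficiency and multiplied those of lowered genes by it, and left averages within a narrow band around 1 as unchanged. Applied to these counts, this step, with background subtracted, gave average ratios of 1.58 (24 h) and 2.03 (48 h) for FOSL1, 1.56 and 1.99 for PPARD, and 1.54 and 0.543 for MYC. The uncorrected averages were 1.11 and 1.09, 1.10 and 1.06, and 1.08 and 0.965, so most of the distance from 1 came from the step itself. For MYC at 48 h the average of 0.965 placed the gene among the lowered ones, and pair 2, with an uncorrected ratio of 1.05, was then multiplied down to 0.642.

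The comparison of 48 h with 24 h asks how the 3 mRNAs moved in time within an arm. MYC fell in the miR-25 samples, by 0.37 on the log2 scale (SE 0.089; 95% interval -0.57 to -0.17; edgeR adjusted p = 0.0253), and the 3 samples at 48 h all lay below the 3 at 24 h. This fit had no block and counted both samples of a pair in its spread, although paired samples deviated together (correlations of 0.283 to 0.883). With the 6 miR-25 samples alone, 1 per pair, MYC read -0.37 and did not pass (edgeR adjusted p = 0.0883), and 7 genes passed. In the control samples the MYC log2 fold change was -0.20 ± 0.089 (-0.40 to -0.01; edgeR adjusted p = 0.134), again with no overlap between the times. In the same fit 17 of 136 genes passed in the miR-25 samples (12.5%; 9 higher, 8 lower) and 10 in the control samples (7.35%; 5 higher, 5 lower). Groups without overlap were common over time, 41.2% of genes in the miR-25 and 35.3% in the control samples, and MYC was one of these in both arms.

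FOSL1 and PPARD did not pass in time. The log2 fold change of FOSL1 was -0.07 ± 0.14 in the control and -0.09 ± 0.14 in the miR-25 samples (edgeR adjusted p = 0.726 and 0.664), and its 95% intervals ran from -0.37 to 0.23 and from -0.39 to 0.22. That of PPARD was -0.04 ± 0.11 and -0.11 ± 0.11 (adjusted p = 0.790 and 0.533), with intervals from -0.28 to 0.20 and from -0.34 to 0.13. Without replicate 1 of 48 h, the highest FOSL1 sample of both arms, FOSL1 passed in the miR-25 samples (-0.25, adjusted p = 0.0205) and read -0.18 in the controls (adjusted p = 0.0676), and PPARD read 0.06 in the controls.

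The call for MYC in the miR-25 samples depended on the samples kept. It passed under every scaling tried, by -0.30 with the total without GAPDH up to -0.49 with 5 reference genes as library size. It passed without replicate 1 or 2 of 48 h, but not without any single replicate of 24 h or without replicate 3 of 48 h (edgeR adjusted p 0.0673 to 0.164, log2 fold change -0.38 to -0.30). In the control samples DESeq2 called MYC (-0.28, adjusted p = 0.0159). The median log2 fold change of all tested genes was 0.09 in the miR-25 samples and -0.04 with the reference genes as library size, a shift that applies to FOSL1, MYC and PPARD as well.

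**Figure D4:**
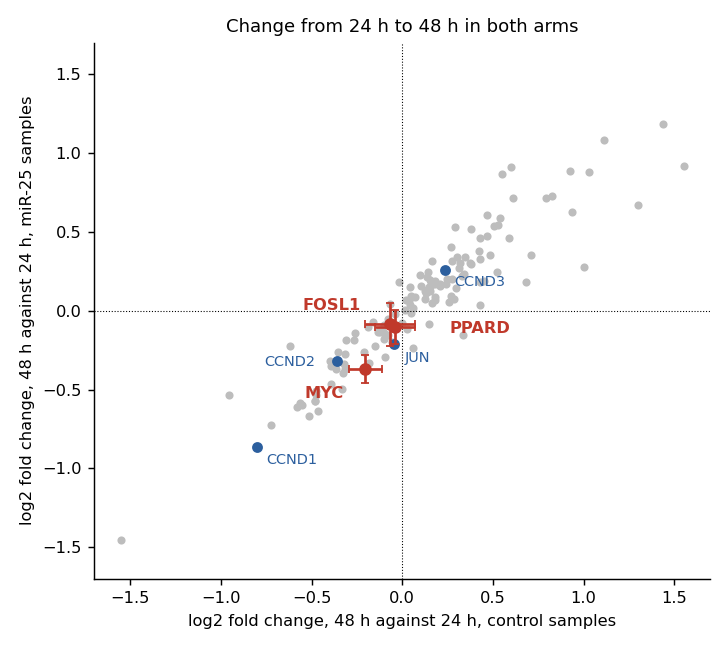
Log2 fold change of 48 h against 24 h in the control samples (horizontal) and in the miR-25 samples (vertical) for the 136 genes tested (grey points). FOSL1, MYC and PPARD are red with ± 1 SE, and JUN, CCND1, CCND2 and CCND3 are blue. MYC lies at -0.20 and -0.37, FOSL1 and PPARD lie near 0 in both arms, and CCND1 lies lowest of the named genes at -0.80 and -0.87.

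Other outputs of the pathway were read from the same fits. JUN, whose protein pairs with FRA-1, had log2 fold changes of 0.06 ± 0.051 at 24 h and -0.09 ± 0.060 at 48 h with miR-25 (edgeR adjusted p = 0.858 and 0.540). CCND1, the gene of cyclin D1, had 0.12 ± 0.039 at 24 h (adjusted p = 0.543), the second smallest p after FOSL1, and 0.03 ± 0.045 at 48 h. CCND3 had 0.10 and 0.11, and CCND2, with 21 to 162 counts, -0.10 and -0.05. Over time CCND1 had -0.80 ± 0.32 in the control and -0.87 ± 0.32 in the miR-25 samples (edgeR adjusted p = 0.106 and 0.0813), a larger estimate than that of MYC with a wider error. Without replicate 1 of 48 h CCND1 passed at 24 h (0.12, edgeR adjusted p = 0.0015) and over time in both arms (-1.17 and -1.31). The list of these 4 genes held 0 calls in every comparison with all samples, and its median with miR-25 was 0.08 at 24 h and -0.01 at 48 h.

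Beside FOSL1, MYC and PPARD, 68 genes of the pathway were listed (ligands, receptors, inhibitors, relays, the destruction complex, nuclear partners, noncanonical effectors and other outputs), and 47 of them were tested. With miR-25, 0 of the 47 passed at 24 h, at 48 h or over both times, where 5, 4 and 8 (10.6%, 8.51% and 17.0%) had an unadjusted p under 0.05, against 6.62%, 12.5% and 15.4% of all genes tested. Their median log2 fold change was 0.02, -0.02 and 0.00. From 24 h to 48 h WNT5B, FZD7 and APC fell in both arms, 3 of the 47 (6.38%) in each. Of all 136 genes tested, 5 in the controls and 8 in the miR-25 samples passed as lower. In either direction 7.35% (controls) and 12.5% (miR-25) of all genes passed. WNT5B, a ligand, had log2 fold changes of -1.55 in the control and -1.46 in the miR-25 samples, FZD7, a Frizzled receptor, -0.58 and -0.61, and APC, a scaffold of the destruction complex, -0.56 and -0.58. WNT3, another ligand, rose by 0.61 in the miR-25 samples (edgeR adjusted p = 0.0363) and read 0.47 in the controls (adjusted p = 0.0849). With each pair left out in turn, WNT5B passed in 6 of 6 fits in both arms (-1.88 to -1.31 in the controls, -1.70 to -1.24 in the miR-25 samples). FZD7 passed in 2 of 6 fits in the controls and 3 of 6 in the miR-25 samples, APC in 3 of 6 in both, and WNT3 in 1 of 6 in both, without replicate 1 of 48 h. FZD7 and APC failed in both arms without replicate 2 of 24 h, replicate 3 of 24 h or replicate 2 of 48 h, and FZD7 failed in the controls without replicate 3 of 48 h as well. Most Wnt ligands were weak here, with 3 of 19 above the background level in 12 of 12 samples, whereas 10 of 10 genes of beta-catenin and its destruction complex and 7 of 9 Frizzled receptors were.

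FOSL1, MYC and PPARD were not one another's nearest genes from sample to sample. Likeness was measured as the root mean square difference of log2 levels, each centred on its mean over the 12 samples, against 135 other genes. FOSL1 was nearest to RAC1 (0.122), AXIN1 (0.126) and JUN (0.128), MYC to FBXW11 (0.114), CSNK1G3 (0.123) and CTNNA1 (0.131), and PPARD to CSNK2A1 (0.086), TUBB (0.099) and CTNNA1 (0.103). The median over all genes was 0.283 for FOSL1, 0.307 for MYC and 0.276 for PPARD. Among the 135, PPARD ranked 21 in likeness to MYC, MYC ranked 30 in likeness to FOSL1, and PPARD ranked 42 in likeness to FOSL1. The 12 points share their panel totals, and the time points weigh in all of them.

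Ratios of 2 of the genes within a sample need no scaling to the panel. The FOSL1 count was 3.16 to 3.56 times the MYC count in the 24 h controls, 3.38 to 3.62 times in the miR-25 samples at 24 h, 3.29 to 4.22 times in the 48 h controls and 3.18 to 5.31 times in the miR-25 samples at 48 h. The highest values at 48 h, 4.22 in the controls and 5.31 in the miR-25 samples, were those of replicate 1. FOSL1 over MYC was higher with miR-25 in 4 of 6 pairs (factors of 0.965 to 1.26), and FOSL1 over PPARD likewise in 4 of 6 (0.946 to 1.11). The PPARD count was 0.379 to 0.421 of the MYC count in the 24 h controls, 0.380 to 0.430 in the miR-25 samples at 24 h, 0.374 to 0.526 in the 48 h controls and 0.455 to 0.558 in the miR-25 samples at 48 h, so the 48 h controls overlapped all the other groups. The PPARD to MYC ratio changed with miR-25 by factors of 1.022, 1.004 and 1.014 at 24 h and 1.221, 1.021 and 1.061 at 48 h. These factors were not tested, and at 24 h they lie within the counting error of a single PPARD count. Each factor rests on 4 counts. At 48 h a single count carried an error of 5.85% to 9.05% for PPARD and 4.37% to 5.54% for MYC. How many other pairs of genes give factors above 1 in all pairs was not counted.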

How the data were processed

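RNA from 12 LX-2 samples (50 ng each) was hybridised to the nCounter panel. The authors deposited raw counts per probe, without background correction or scaling, for 199 genes, 8 negative and 6 positive control probes as a digital analyser read them; nSolver was the authors' software for processing them. Genes were named through the panel sheet (193) or a RefSeq table (6). The authors' later scaling, efficiency-corrected values and q values were not used, and the pull-down experiment was not analysed here.

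Levels are counts per 100,000 panel counts. The 136 genes whose mean reached 20 counts were tested with edgeR 4.0.16 (R 4.3.3), the panel total as library size, all 12 samples in 1 fit, Benjamini-Hochberg adjustment and a threshold of 0.05. The pair was the block for miR-25 against control, since both samples share a replicate, a time and a transfection efficiency. Deviations of paired samples from their group means correlated by 0.283 to 0.883 over the 6 pairs. Time comparisons had no block. Fits were tested on simulated counts. For the time comparisons these had a smaller spread than the data and no deviation shared by a pair, so they do not bear on those calls. DESeq2 1.42.0, limma 3.58.1 (pseudocounts of 1 and 5, and background subtracted), TMM, the panel's 5 reference genes (TUBB, HPRT1, GUSB, GAPDH and CLTC), the total without GAPDH, other filters, other blocks, fewer samples and each pair left out were alternatives. Python 3.11.15, numpy 2.4.6, pandas 2.3.3, scipy 1.17.1 and matplotlib 3.10.9 were used for levels, intervals and figures.

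FOSL1, MYC, PPARD and the gene lists were chosen with earlier results of these data known. Other genes named are JUN, PPARG and the cyclin D genes, the 3 genes nearest each of the 3 by level, listed Wnt genes past the threshold (over time, up to 2 per direction and list), and the reference genes. Counting intervals cover counting error only. Values have no genome build, so no gene coordinates are given.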

Additional observations from a re-analysis of the deposited data

How the results depend on the processing

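FOSL1, MYC and PPARD kept the direction of their miR-25 effect at 24 h, at 48 h and over both times under all 17, 17 and 16 alternatives, and MYC and PPARD kept that of the difference between times under 16. FOSL1 passed in 3 of these fits (0.14 at 24 h without replicate 1 of 48 h, 0.14 with the 24 h samples alone, 0.12 over both times without replicate 1 of 48 h). At 24 h the SE moved, to 0.030 and 0.032 from 0.043, and the estimate did not. Why the spread was smaller was not tested. With each pair left out in turn, FOSL1 ranged over 0.12 to 0.19 at 24 h, 0.08 to 0.16 at 48 h and 0.12 to 0.15 over both times, MYC over 0.10 to 0.13, -0.12 to -0.02 and 0.02 to 0.08, and PPARD over 0.12 to 0.15, 0.03 to 0.13 and 0.10 to 0.13. At 48 h these moved by over 1.5 times for MYC without any 1 of the 48 h pairs (-0.02, -0.12 and -0.02 without replicates 1, 2 and 3) and for PPARD without replicate 1 (0.03) or 3 (0.13); over both times MYC moved so without replicate 2 of 24 h (0.02) or replicate 1 of 48 h (0.08). The FOSL1 difference between the times, near 0, turned to 0.00503 with DESeq2, 0.002 without replicate 1 of 24 h and 0.0189 without replicate 2 of 48 h (leave-one-out range -0.0774 to 0.0189). Over time, with each pair left out, MYC ranged over -0.46 to -0.30 in the miR-25 samples and did not pass in 4 of 6 such fits, nor with that arm alone (-0.37), and DESeq2 called it in the controls (-0.28). FOSL1 in the miR-25 samples ranged over -0.25 to 0.0215, turning without replicate 2 of 48 h, and PPARD in the controls over -0.12 to 0.0557, turning without replicate 1 of 48 h. The small CCND1 effect at 48 h turned to -0.0229 without replicate 1 of 48 h (leave-one-out up to 0.0619), and that of CCND2 to 0.0271 with background subtracted and 0.197 without replicate 3 of 48 h (leave-one-out from -0.218). WNT5B passed over time in all 17 alternatives in both arms, FZD7 in 12 (controls) and 14 (miR-25), APC in 13 and 14, WNT3 in 9 in the miR-25 samples, and FGF1 at 48 h in 11. The efficiency step moved the average ratios to 1.58 and 2.03 (FOSL1), 1.54 and 0.543 (MYC) and 1.56 and 1.99 (PPARD).

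Without the replicate block for pairs, the miR-25 effects were 0.14 and 0.13 (FOSL1), 0.12 and -0.05 (MYC) and 0.13 and 0.07 (PPARD) at 24 h and 48 h, with no call. Numbers of genes called depended on the settings. For miR-25 they were 0 to 3 at 24 h (3 with that time alone: CCND1, CXCL12 and FOSL1), 0 to 3 at 48 h (1, JAG2 and not FGF1, with limma at either pseudocount, 0 with the reference genes, with background subtracted or with no replicate block, 3 with no filter, namely FGF1, PLAU and SOX1, 3 with that time alone, namely CXCL12, FGF1 and PLAU, leave-one-out 0 to 2), 0 to 4 over both times (leave-one-out; the 4 were CCND1, CXCL12, DVL3 and FOSL1) and 1, FGF1, for the difference with TMM, without GAPDH, with DESeq2 or with no filter. Over time in the controls, 10 became 17 with TMM, 23 without GAPDH (17 higher, 6 lower), 33 with DESeq2 (13 higher, 20 lower), 33 with the replicate letter as a block and 5 to 63 with a pair left out (63 without replicate 1 of 48 h). With the control arm alone, 1 sample per pair, 4 genes passed as higher and 3 as lower. In the miR-25 samples, 17 became 26 without GAPDH (20 higher, 6 lower), 41 with DESeq2 (18 higher, 23 lower), 9 with background subtracted, 7 with that arm alone, 36 with the letter as a block, and 4 to 63 with a pair left out, while the reference genes gave 14 (3 higher, 11 lower). Letters did not pair samples across time (correlations -0.096 to 0.057), and with them as a block MYC read -0.20 in the controls and -0.37 in the miR-25 samples, with unchanged calls for all 3 genes. Depth limits PPARD most: at 48 h its counts of 122 to 292 carry a counting error of 5.85% to 9.05%.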
